A study of Mus musculus with 14 samples.

Results

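Genes of the cytochrome P450 families 1 to 3 were taken as all gene symbols made of Cyp, a family number of 1, 2 or 3, a subfamily letter and a gene number. This gave 56 genes of 29737 symbols in the deposited tables, of which 54 were listed in the bulk table labelled KO and WT (23404 symbols), 50 in the bulk table labelled LD and PBS (20337 symbols) and 52 in the table of nuclei (21911 symbols). The subfamilies differed in size, with 15 Cyp2c genes, 9 Cyp2d, 7 Cyp2j, 7 Cyp3a, 4 Cyp2a, 4 Cyp2b and 2 Cyp1a genes, and 1 gene each of Cyp1b, Cyp2e, Cyp2f, Cyp2g, Cyp2r, Cyp2s, Cyp2t and Cyp2u. RNA came from whole mouse liver in 12 bulk libraries and from sorted nuclei in 2 libraries. By the labels, 3 libraries came from Ms4a7 KO mice and 3 from wild type (WT) mice, all fed a NASH diet (a diet that induces nonalcoholic steatohepatitis) for 22 weeks. Of the other bulk libraries, 3 came from wild type mice on chow given lipid droplets (LD) into the tail vein on 6 consecutive days, and 3 from wild type mice on chow given phosphate-buffered saline (PBS) in the same way. The nuclei libraries, labelled Ms4a7 KO and WT, each pooled 3 livers of mice on the NASH diet for 22 weeks. The labels give no age, sex or strain and do not describe the Ms4a7 allele, and they do not say that replicates came from separate animals, so p-values measure the spread between these samples.

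Cytochrome P450 enzymes of these families are haem proteins of the endoplasmic reticulum that add oxygen to drugs, toxins, steroids, fatty acids and bile acids, with electrons passed on by the reductase Por. In the liver they are made mostly by hepatocytes, and many are strongest near the central vein. Several are switched on by receptors that bind foreign compounds: Ahr drives Cyp1 genes, Nr1i3 (CAR) drives Cyp2b and some Cyp2c genes, and Nr1i2 (PXR) drives Cyp3a genes, while growth hormone pulses set which members are higher in males or in females.

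The bulk tables raised a doubt about their labels that touches every direction below. Ms4a7, the deleted gene, was at 102, 117 and 136 normalized counts (read counts divided by a size factor per library) in the libraries labelled KO, against 9.70, 25.8 and 23.3 in those labelled WT. It was higher in the libraries labelled KO, by a log2 fold change of 2.63 ± 0.37 (SE, limma adjusted p = 0.0149). It was at 10.5, 7.60 and 9.32 in the libraries labelled LD, against 62.2, 84.7 and 163 in those labelled PBS. The submitters named the table with columns labelled KO and WT for lipid droplets and the table with columns labelled LD and PBS for Ms4a7. Groups are therefore called by their labels throughout. The libraries labelled KO and WT held between 21945394 and 23126164 gene reads each, and those labelled LD and PBS between 39318264 and 41346464. Sex is not in the labels, but the Y-linked Ddx3y lay between 851 and 898 in the libraries labelled KO and between 828 and 1020 in those labelled WT, and Xist was at most 8.57 in either. In the other table Ddx3y lay between 1208 and 1444 in the libraries labelled LD and between 1341 and 1546 in those labelled PBS, with Xist at most 6.51.

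Most of these genes lie in tandem clusters, in mm10 coordinates of the GENCODE annotation, or of RefSeq for Cyp2d13. The Cyp2c cluster without Cyp2c23 spans 1.18 Mb with 14 genes (chr19:39007019-40187333), the Cyp2d cluster 0.42 Mb with 9 genes (chr15:82370527-82794294), the Cyp2j cluster 0.64 Mb with 7 genes (chr4:96027534-96664154) and the Cyp3a cluster without Cyp3a13 0.77 Mb with 6 genes (chr5:145345279-146113287). A cluster of 12 Cyp2a, Cyp2b, Cyp2f, Cyp2g, Cyp2s and Cyp2t genes spans 1.36 Mb (chr7:25802475-27158668). Neighbours are close copies: of the 55 genes with annotated exons, 24 shared over 10% of their 50-base exon stretches with another gene. Cyp2c69 shared 46.5% of its stretches with Cyp2c40, Cyp2c67 shared 40.0% with Cyp2c40, Cyp2a4 shared 36.1% with Cyp2a5, and Cyp2d10 shared 22.9% with Cyp2d11. How the authors' counting split reads between such copies is not given in the sources used here, so the values of these genes are uncertain to that extent.

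Upstream sequence was available for 47 of the 56 genes from RefSeq (assembly GRCm38.p6), as the 250 bases before the annotated start. The 3 pairs of genes printed here, each of 1 subfamily on 1 chromosome, were chosen because their levels or changes part in the results. In the Cyp2a pair, Cyp2a5 (chr7:26835089-26835338, plus strand), the coumarin hydroxylase of mouse liver, and Cyp2a4 (chr7:26306942-26307191, plus strand), a testosterone 15-alpha-hydroxylase that is female-biased in adult mouse liver, were 97.6% identical, and capitals mark bases without an identical partner in the other gene.
Cyp2a5: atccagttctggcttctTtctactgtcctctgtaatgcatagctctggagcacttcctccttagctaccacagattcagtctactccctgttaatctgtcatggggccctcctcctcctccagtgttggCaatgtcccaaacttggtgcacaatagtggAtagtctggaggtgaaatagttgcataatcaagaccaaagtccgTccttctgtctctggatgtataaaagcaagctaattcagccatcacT
Cyp2a4: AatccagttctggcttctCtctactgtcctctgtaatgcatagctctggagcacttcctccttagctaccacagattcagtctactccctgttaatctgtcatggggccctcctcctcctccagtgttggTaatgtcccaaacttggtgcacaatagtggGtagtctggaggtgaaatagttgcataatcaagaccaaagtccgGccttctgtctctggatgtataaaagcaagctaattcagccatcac
In the Cyp2d pair, Cyp2d9 (chr15:82452127-82452376, plus strand), the male-biased testosterone 16-alpha-hydroxylase, and Cyp2d10 (chr15:82407195-82407444, minus strand) were 82.3% identical, again with differing bases in capitals. The RefSeq start of Cyp2d9 lies inside the GENCODE gene, downstream of its first base. The same holds for Cyp2a5, Cyp2a4 and the Cyp1a pair printed next, where the GENCODE gene of Cyp1a1 begins at chr9:57687928.
Cyp2d9: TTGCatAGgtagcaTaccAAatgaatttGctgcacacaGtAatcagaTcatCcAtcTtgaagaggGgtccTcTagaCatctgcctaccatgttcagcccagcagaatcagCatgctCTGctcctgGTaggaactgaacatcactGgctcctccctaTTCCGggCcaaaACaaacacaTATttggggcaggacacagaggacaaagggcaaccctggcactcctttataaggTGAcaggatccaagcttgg
Cyp2d10: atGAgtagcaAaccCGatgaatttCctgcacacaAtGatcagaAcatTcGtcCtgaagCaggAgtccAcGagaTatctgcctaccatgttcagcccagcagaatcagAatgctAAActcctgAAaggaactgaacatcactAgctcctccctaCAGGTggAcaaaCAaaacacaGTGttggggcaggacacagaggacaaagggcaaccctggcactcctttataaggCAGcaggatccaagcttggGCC
In the Cyp1a pair, Cyp1a2 (chr9:57683656-57683905, minus strand), which oxidizes caffeine and aromatic amines, and Cyp1a1 (chr9:57697363-57697612, plus strand), the classical Ahr target, are drawn with GCGTG, the core letters of an Ahr element, and TATAAA in capitals.
Cyp1a2: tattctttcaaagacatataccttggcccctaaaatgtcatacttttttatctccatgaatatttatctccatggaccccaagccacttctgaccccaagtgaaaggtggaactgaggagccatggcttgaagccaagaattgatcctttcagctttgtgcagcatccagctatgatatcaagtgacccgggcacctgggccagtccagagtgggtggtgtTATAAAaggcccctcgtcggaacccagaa
Cyp1a1: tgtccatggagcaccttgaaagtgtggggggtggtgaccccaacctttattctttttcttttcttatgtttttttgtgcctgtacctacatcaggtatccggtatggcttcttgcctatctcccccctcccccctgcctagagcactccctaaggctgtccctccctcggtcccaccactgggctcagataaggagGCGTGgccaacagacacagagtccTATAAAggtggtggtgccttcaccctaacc
The window of Cyp1a1 held 1 GCGTG, 54 to 50 bases before the start, and that of Cyp1a2 held TATAAA but no GCGTG. Searched on both strands, GCGTG stood in 6 of the 47 windows, against 28.2% of all 27025 windows of that length in the RefSeq table. TATAAA stood in 23 of the 47 windows, against 13.0% of all, and AGGTCA, a nuclear receptor half-site, in 13 of the 47, against 13.8% of all. The STAT5 letters TTCNNNGAA stood in 1 of the 47 windows, against 7.18% of all, and the glucocorticoid half-site TGTTCT in 12, against 16.2% of all. The C/EBP letters TTGCGCAA stood in 0 of the 47 windows and in 0.17% of all. A match is a description of these letters only.

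Levels per kilobase of exon ranged widely in bulk liver, and Cyp2e1, which oxidizes ethanol, acetone and paracetamol, led in both tables. Cyp2e1 was at 79279 ± 7053 normalized counts per kilobase in the libraries labelled KO and 95476 ± 2085 in those labelled WT (SD, n = 3 each), which is 30.2% (KO) and 27.7% (WT) of the summed level of all members. It was at 147399 ± 9894 in the libraries labelled LD and 95768 ± 19176 in those labelled PBS, which is 36.4% (LD) and 34.4% (PBS) of the sum. Cyp2f2, a periportal enzyme that activates naphthalene, Cyp3a11, the main PXR-induced Cyp3a of mouse liver, Cyp2a5, Cyp2d9, Cyp1a2, Cyp2d26 and Cyp2c29 followed in the table labelled KO and WT, with means between 10909 for Cyp2c29 and 24357 for Cyp2f2 in the libraries labelled KO and between 16243 for Cyp2d26 and 35351 for Cyp2f2 in those labelled WT. In the table labelled LD and PBS the next were Cyp2d26, Cyp2f2, Cyp2d9, Cyp3a11, Cyp2c29, Cyp2d10 and Cyp2a5, with means between 11333 for Cyp2a5 and 37770 for Cyp2d26 in the libraries labelled LD and between 7631 for Cyp2a5 and 28608 for Cyp2d26 in those labelled PBS. At the low end, 9 members of the table labelled KO and WT and 6 of the other did not reach 10 normalized counts in 3 of 6 libraries and were not tested, with no single value over 20.8 and 9.45 in them. Cyp2b23 and Cyp2j13 were listed at 0 in all 6 libraries of the table labelled KO and WT. The spread between replicates was wide for single members: the median coefficient of variation was 19.6% among the libraries labelled KO and 21.6% among those labelled WT, and 16.0% among those labelled LD and 17.5% among those labelled PBS.

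**Figure D1:**
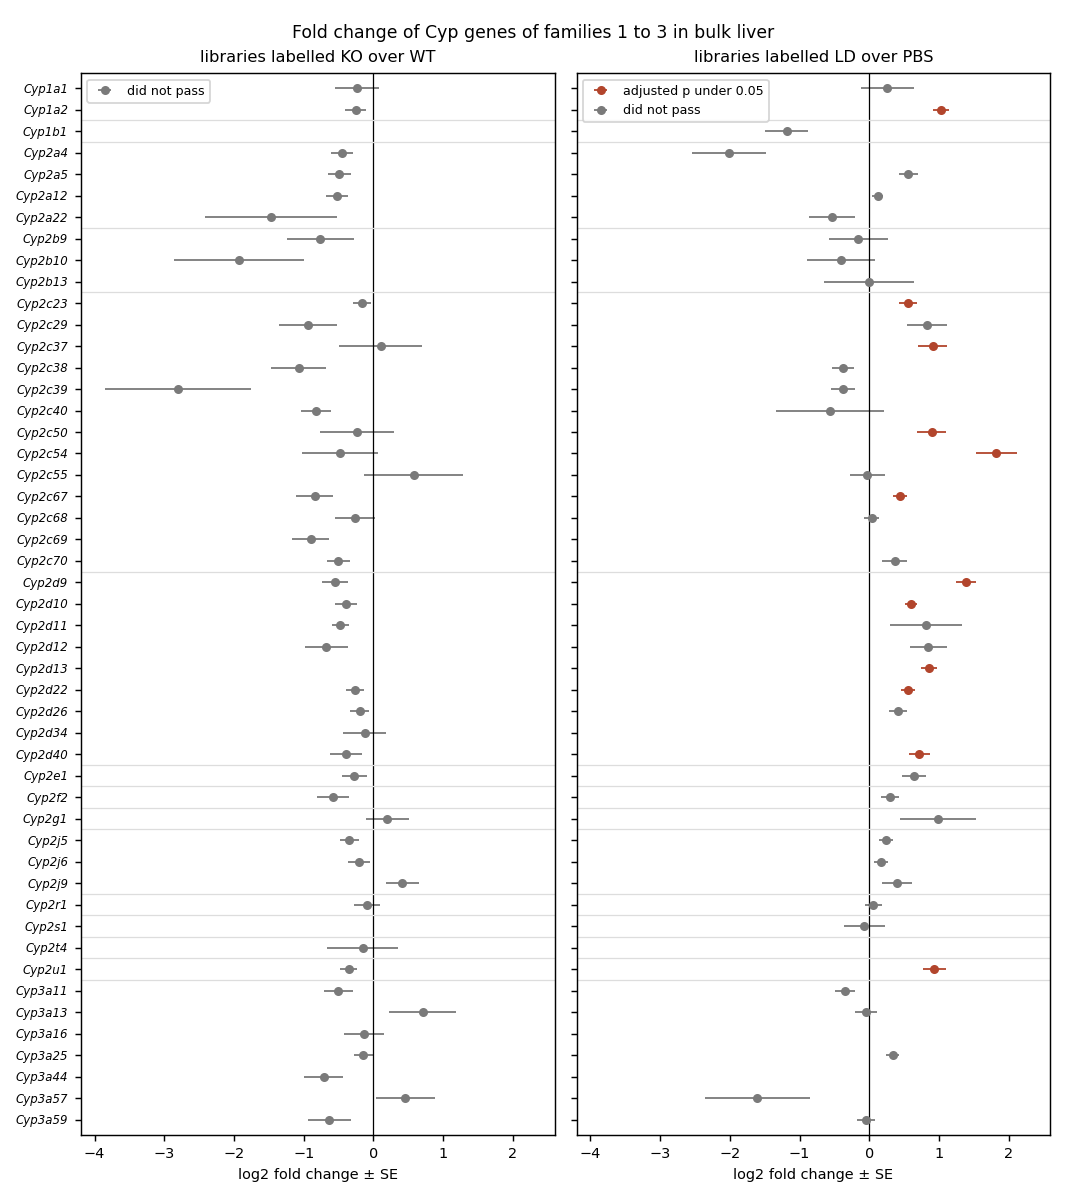
Log2 fold change (x axis) of each member tested (y axis, grouped by subfamily) in the libraries labelled KO over WT (left, 45 genes) and LD over PBS (right, 44 genes), as points with SE bars from limma on 3 libraries against 3. Red points passed an adjusted p of 0.05 over all genes: none on the left and 12 on the right, all above 0, while 39 of 45 points on the left lie below 0.

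By its labels, the first comparison asks how liver RNA on the NASH diet depends on Ms4a7. These P450 genes took 2.42%, 2.19% and 2.44% of gene reads in the libraries labelled KO, against 3.04%, 2.89% and 3.24% in those labelled WT, so the groups did not overlap. In bulk liver, fewer cells of a type and less RNA per cell cannot be told apart. Gene by gene the difference did not pass: limma called 0 of 45 members tested, where 3.72% of all 15827 genes tested passed (3.02% higher and 0.701% lower). At an unadjusted p under 0.05 limma gave 17 members, all lower, where 7.99% of all genes were lower. The edgeR quasi-likelihood test on whole reads recovered from the values called 0 members, where 4.09% of all genes passed, and DESeq2 on the same reads called 8, all lower, where 2.04% of all genes were lower. The log2 fold change was below 0 for 39 of 45 members and for 52.8% of all genes, with a median of -0.39 over the members and -0.02 over all genes. The groups did not overlap for 15 members that were lower and 1 that was higher in the libraries labelled KO, where 11.7% and 12.4% of all genes did so. By the authors' deposited table, 13 of the 48 members with an adjusted p had one under 0.05, all lower, where 6.01% of all genes with an adjusted p there were lower and 9.37% higher.

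The Cyp2c genes, many of which make epoxides of arachidonic and linoleic acid, had log2 fold changes below 0 for 11 of 13 tested, with none passing limma. Cyp2c40 was at 815, 750.4 and 963 normalized counts in the libraries labelled KO, against 1169, 1314 and 2123 in those labelled WT, a log2 fold change of -0.82 ± 0.22 (limma adjusted p = 0.0889). Its groups did not overlap, and in DESeq2 its adjusted p was 0.00452, while in limma without 1 library it ran from 0.0789 to 0.242. Cyp2c67 was at 8128, 6751 and 8899 in the libraries labelled KO, against 10812, 11756 and 22182 in those labelled WT, a change of -0.84 ± 0.26 (limma adjusted p = 0.140, DESeq2 0.00750). Cyp2c69 was at 394, 339 and 417 in the libraries labelled KO, against 523, 613 and 1128 in those labelled WT, a change of -0.90 ± 0.27 (limma adjusted p = 0.121, DESeq2 0.00817). In all 3 the highest library was WT replicate 3, and Cyp2c40 and Cyp2c69 share more exon sequence than any other pair here, so they are not separate evidence. Cyp2c38 was at 301, 252 and 519.5 in the libraries labelled KO, against 518, 551 and 1289 in those labelled WT, a change of -1.07 ± 0.39 (limma adjusted p = 0.197, DESeq2 0.0271), and here KO replicate 3 overlapped WT replicate 1. Cyp2c39, a retinoic acid hydroxylase, had the lowest log2 fold change of all members, -2.80 ± 1.05 (limma adjusted p = 0.206, DESeq2 0.273). In the authors' deposited DESeq2 results Cyp2c39 had an adjusted p of 0.0126, so the 2 DESeq2 runs differ on it. It was at 463, 414 and 27.6 in the libraries labelled KO, against 678, 1015 and 2724 in those labelled WT, with KO replicate 3 far below and WT replicate 3 far above the others of their groups.

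Several members with a role in steroid, bile acid and drug oxidation were also lower, with none passing limma. Cyp3a11 was at 117862, 89537 and 106501 normalized counts in the libraries labelled KO, against 121487, 151607 and 173685 in those labelled WT, a change of -0.50 ± 0.20 (limma adjusted p = 0.240, DESeq2 0.0367). Cyp2a5 was at 33986, 36368 and 31794 in the libraries labelled KO, against 59428, 45075 and 40762 in those labelled WT, a change of -0.49 ± 0.16 (limma adjusted p = 0.162, DESeq2 0.0301). Neither pair of groups overlapped. Cyp2d9 was at 47619, 29385 and 36395 in the libraries labelled KO, against 51369, 55248 and 56551 in those labelled WT, a change of -0.55 ± 0.19 (limma adjusted p = 0.164, DESeq2 0.0409). Cyp2a12, which hydroxylates bile acids in mice, was at 15545, 20551 and 14167 in the libraries labelled KO, against 26142, 23610 and 21870 in those labelled WT (limma adjusted p = 0.123, DESeq2 0.0352). All 4 of these genes were lower in each library labelled KO than in any labelled WT. Cyp2e1 was at 188584, 160942 and 163726 in the libraries labelled KO, against 205284, 210866 and 201965 in those labelled WT, a change of -0.27 ± 0.18 (limma adjusted p = 0.485) with groups that did not overlap. By subfamily, all 8 Cyp2d, all 4 Cyp2a, both tested Cyp2b and both Cyp1a genes had a log2 fold change below 0, as did 11 of 13 Cyp2c and 5 of 7 Cyp3a genes. Their medians were -0.40 for Cyp2d, -0.51 for Cyp2a, -0.51 for Cyp2c and -0.14 for Cyp3a. None of the 9 tested genes of a female-biased list, which also holds Cyp3a41a and Cyp3a41b, lay above 0 (median -0.71). The 2 genes of the male-biased list, Cyp2d9 and Cyp2u1, were below 0 too (median -0.45), as were 39 of all 45 members tested. Macrophage markers moved beside these values: 5 of 8 passed as higher in the libraries labelled KO, with a summed level of 22886 to 42158 there and 3878 to 7966 in those labelled WT. The hepatocyte markers summed to 2015550 to 2485460 in the libraries labelled KO and 1939490 to 2202760 in those labelled WT, and none of 7 passed. Of 8 periportal hepatocyte markers 3 passed as higher, with a sum of 179816 to 234008 in the libraries labelled KO and 151590 to 176130 in those labelled WT, and of 9 pericentral markers none passed (median 0.05). Of the other lists, 1 of 7 endothelial, 1 of 2 tested neutrophil and 1 of 5 tested B and plasma markers passed as higher, where 3.02% of all genes did. No marker of the macrophage or hepatocyte lists was at 0 in any library, and the part of these cells in the P450 values was not tested.

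The 4 largest rises did not pass either. Cyp3a13 was at 2606, 3259 and 1164 normalized counts in the libraries labelled KO, against 970, 912 and 2549 in those labelled WT, a change of 0.71 ± 0.48 (limma adjusted p = 0.498) with groups that overlapped. Cyp2c55 (0.58 ± 0.72), Cyp3a57 (0.45 ± 0.42) and Cyp2j9 (0.41 ± 0.24) had adjusted p of 0.736, 0.637 and 0.415 in limma, and the sign of Cyp2c55 turned without KO replicate 3, to -0.02. Among the falls, Cyp2b10, the standard target of CAR, was at 173, 14.2 and 209.7 in the libraries labelled KO, against 514, 219.5 and 269 in those labelled WT, a change of -1.93 ± 0.93 (limma adjusted p = 0.324). Cyp2a22 spread widely, with 86.0, 616 and 62.2 in the libraries labelled KO, against 761, 678 and 138 in those labelled WT (-1.47 ± 0.94, limma adjusted p = 0.466).

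The CAR-induced genes, with some other members, shared a pattern between libraries that the labels do not give. Nr1i3, the gene for CAR, was at 2668, 936 and 3553 normalized counts in the libraries labelled KO, against 3656, 2075 and 2714 in those labelled WT, a change of -0.40 ± 0.46 (limma adjusted p = 0.709). Replicate 2 was the lowest of its group for Nr1i3 and for all 4 CAR-induced members, in the libraries labelled KO and in those labelled WT. The same held for members off the CAR list, among them Cyp2d22, Cyp2d26, Cyp3a25 and Cyp2c50, so it is not read as particular to CAR. It did not hold for others, such as Cyp2a5 and Cyp2f2, and the share over all members or all genes was not computed. Cyp2c29 was at 38504, 14604 and 47074 in the libraries labelled KO, against 58090, 44117 and 72862 in those labelled WT (-0.94 ± 0.42, limma adjusted p = 0.284). Cyp2c37 was at 3609, 1214 and 6213 in the libraries labelled KO, against 4986, 1843 and 2381 in those labelled WT (0.10 ± 0.59, limma adjusted p = 0.948). KO replicate 2 was thus low for Nr1i3, Cyp2b10, Cyp2c29 and Cyp2c37 together, and the groups of Nr1i3 and of Cyp2c37 overlapped. In the table labelled LD and PBS, the libraries labelled LD did not share it: LD replicate 3 was the highest of its group for Nr1i3 and Cyp2c55 and the lowest for Cyp2b10, Cyp2c29 and Cyp2c37. PBS replicate 1 was the highest of its group for Nr1i3, Cyp2c29, Cyp2c37 and Cyp2c55 but not for Cyp2b10. This pattern was noticed in the data, and its part in the group differences was not tested.

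The second comparison asks, by its labels, what lipid droplets given to mice on chow change in the liver. P450 genes took 2.29%, 2.39% and 2.14% of gene reads in the libraries labelled LD, against 1.99%, 1.70% and 1.56% in those labelled PBS, without overlap. Of 44 members tested, limma called 12 and all 12 rose, where 4.16% of all 14900 genes passed (1.95% higher and 2.21% lower). The log2 fold change was above 0 for 29 of 44 members and for 50.5% of all genes, with a median of 0.32 over the members and 0.00 over all genes. The groups did not overlap for 17 members that were higher and 4 that were lower in the libraries labelled LD, where 12.6% and 12.8% of all genes did so. At an unadjusted p under 0.05 there were 20 members higher and 4 lower, where 9.28% and 10.4% of all genes stood. In edgeR 10 members passed, all higher, where 1.81% of all genes were higher, and in DESeq2 16 passed as higher and 1 as lower, where 3.73% and 4.47% of all genes did. The limma count fell to 4 without LD replicate 1, 5 without LD replicate 2, 3 without PBS replicate 2 and 3 without PBS replicate 3, and it was 17 without LD replicate 3. Cyp2d9, Cyp1a2 and Cyp2d13 passed in all 6 fits without 1 library, and the other 9 lost the call in at least 1 of them. By the authors' deposited table, 17 of 44 members had an adjusted p under 0.05, 16 of them higher and 1, Cyp1b1, lower, where 3.46% of all genes with an adjusted p there were higher and 4% lower.

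**Figure D2:**
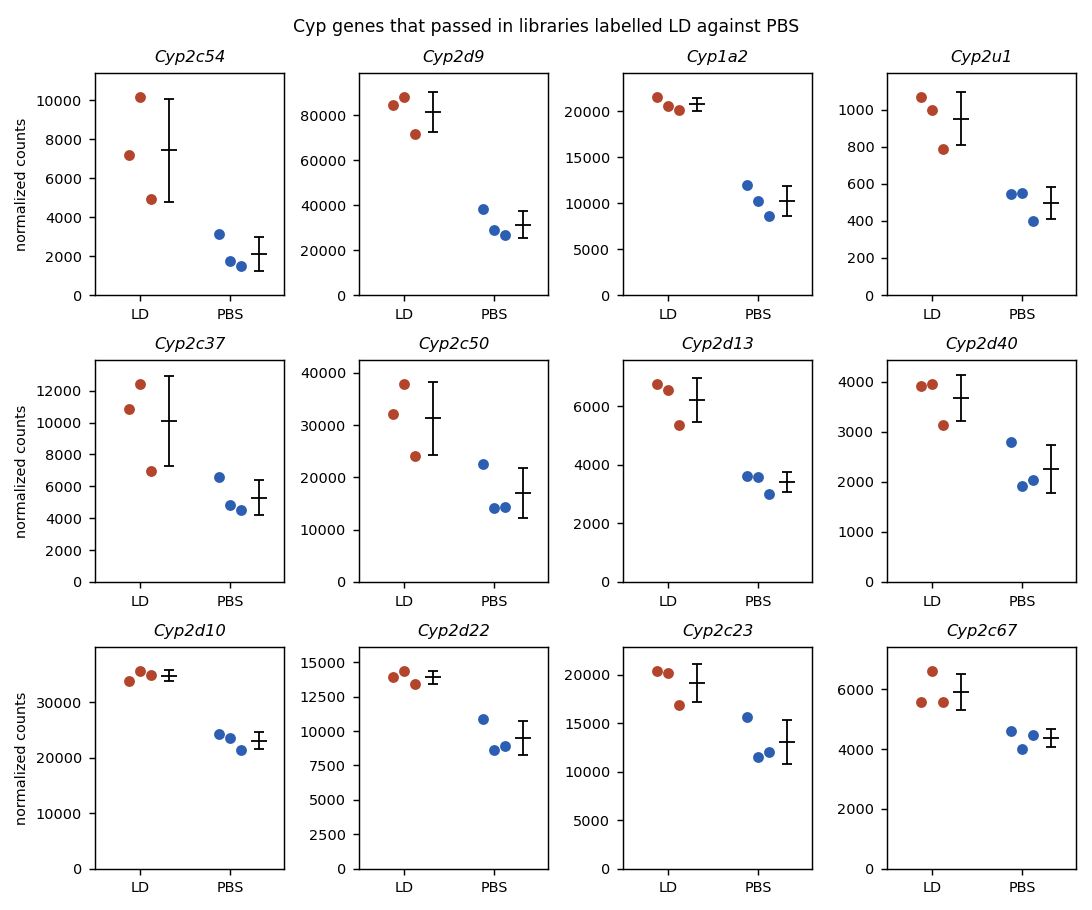
Normalized counts (y axis, from 0) of the 12 members that passed, in each library labelled LD (red, left) and PBS (blue, right), with the mean and SD of 3 libraries in black. In each of the 12 genes the 3 libraries labelled LD lie above the 3 labelled PBS, and Cyp2c54 and Cyp2c37 spread most within the libraries labelled LD.

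The Cyp2d cluster stood out by count: 5 of its 8 tested genes rose, where 1.95% of all genes did. All 8 had a log2 fold change above 0, as did 50.5% of all genes, and 7 had groups apart, where 12.6% of all genes were apart as higher. The median over the 8 was 0.77. The cluster was singled out after its values were seen, and some of its genes share exon sequence, so they are not separate evidence. Cyp2d9 was at 84616, 88151 and 71611 normalized counts in the libraries labelled LD, against 38404, 28856 and 26886 in those labelled PBS. That is a log2 fold change of 1.39 ± 0.15 (limma adjusted p = 0.00296), the largest of the cluster, and the lowest library labelled LD was above the highest labelled PBS. Its neighbour Cyp2d10, whose upstream sequence is printed beside it above, was at 33843, 35697 and 34941 in the libraries labelled LD, against 24248, 23601 and 21327 in those labelled PBS (0.60 ± 0.09, limma adjusted p = 0.00947). Cyp2d13 was at 6767, 6540 and 5354 in the libraries labelled LD, against 3628, 3588 and 3018 in those labelled PBS (0.86 ± 0.11, limma adjusted p = 0.00564). In all 3 genes the groups lay well apart. Cyp2d22, taken as the nearest mouse counterpart of human CYP2D6, rose by 0.56 ± 0.10 (limma adjusted p = 0.0201) and Cyp2d40 by 0.72 ± 0.15 (limma adjusted p = 0.0334), and each lost the call in 4 of the 6 fits without 1 library. Cyp2d26, the highest Cyp2d gene per kilobase, was at 67528, 68949 and 66573 in the libraries labelled LD, against 58308, 52410 and 43076 in those labelled PBS (0.41 ± 0.12), and did not pass limma (adjusted p = 0.105).

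Among genes of steroid and foreign compound oxidation outside that cluster, Cyp1a2 rose. It was at 21579, 20603 and 20177 normalized counts in the libraries labelled LD, against 11954, 10202 and 8643 in those labelled PBS, a log2 fold change of 1.03 ± 0.12 (limma adjusted p = 0.00371). The libraries labelled LD were close together and far from those labelled PBS. The other Ahr-induced members did not pass: Cyp1a1 was at 18.9, 20.6 and 35.2 in the libraries labelled LD, against 21.1, 16.2 and 22.8 in those labelled PBS (0.26 ± 0.38, limma adjusted p = 0.757). Cyp1b1, which hydroxylates estradiol, was at 42.0, 36.9 and 30.0 in the libraries labelled LD, against 100.3, 53.2 and 107 in those labelled PBS, a change of -1.19 ± 0.31 (limma adjusted p = 0.0729, DESeq2 0.0103). Its groups did not overlap, and unlike the other members it was highest in nuclei of a stellate-like group, described below. Cyp2u1, a fatty acid hydroxylase that is male-biased in mouse liver, rose, with 1070, 998 and 791 in the libraries labelled LD, against 547, 550 and 400 in those labelled PBS (0.94 ± 0.16, limma adjusted p = 0.0156).

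Of 12 Cyp2c genes tested, 5 rose, where 1.95% of all genes did, and the median over all 12 was 0.40. Cyp2c54 had the largest rise of all members: it was at 7178, 10163 and 4927 normalized counts in the libraries labelled LD, against 3114, 1741 and 1484 in those labelled PBS (1.83 ± 0.30, limma adjusted p = 0.0143). Cyp2c50 was at 32154, 37867 and 23985 in the libraries labelled LD, against 22507, 14192 and 14236 in those labelled PBS (0.89 ± 0.21, limma adjusted p = 0.0485). Cyp2c37 was at 10874, 12431 and 6976 in the libraries labelled LD, against 6558, 4812 and 4494 in those labelled PBS (0.91 ± 0.21, limma adjusted p = 0.0482). These 3 epoxygenases are neighbours that share exon sequence, 17.5% of the stretches of Cyp2c54 and 21.1% of those of Cyp2c37 with Cyp2c50, and in all 3 LD replicate 3 was the lowest of its group and PBS replicate 1 the highest of its own. Cyp2c67 (0.44 ± 0.10, limma adjusted p = 0.0389) and the epoxygenase Cyp2c23, the older Cyp2c44 (0.56 ± 0.13, limma adjusted p = 0.0490), rose by less. Cyp2c50 and Cyp2c23 lost the call in edgeR, at adjusted p of 0.0540 and 0.0583. Cyp2c29 was at 68477, 81832 and 55214 in the libraries labelled LD, against 62506, 34923 and 25260 in those labelled PBS, and did not pass (0.83 ± 0.29, limma adjusted p = 0.153), with LD replicate 3 below PBS replicate 1.

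Several abundant members did not pass. Cyp2e1 was at 308455, 342558 and 303251 normalized counts in the libraries labelled LD, against 254442, 181996 and 183564 in those labelled PBS (0.64 ± 0.17, limma adjusted p = 0.0761, DESeq2 0.000507), with groups apart. Cyp2f2 was at 69241, 74519 and 60566 in the libraries labelled LD, against 63172, 53282 and 49607 in those labelled PBS (0.30 ± 0.13, limma adjusted p = 0.236), with groups that overlapped. Cyp3a11 ran the other way, at 89488, 82860 and 86517 in the libraries labelled LD, against 130434, 110624 and 90858 in those labelled PBS (-0.34 ± 0.14, limma adjusted p = 0.229). It lay below 0 in every setting tried and passed as lower after quantile normalization (-0.54, limma adjusted p = 0.0440), while without 1 library its adjusted p ran from 0.182 to 0.453. None of 5 tested Cyp3a, 4 Cyp2a or 3 Cyp2b genes passed, against 5 of 8 Cyp2d and 5 of 12 Cyp2c genes. The Cyp2a pair with nearly the same upstream sequence parted: Cyp2a5 was at 20830, 21328 and 28320 in the libraries labelled LD, against 17186, 13752 and 16519 in those labelled PBS (0.56 ± 0.14, limma adjusted p = 0.0560). Cyp2a4 was at 30.4, 48.8 and 176 in the libraries labelled LD, against 199, 302 and 301 in those labelled PBS (-2.01 ± 0.53, limma adjusted p = 0.0727). The groups of each lay apart, one upward and the other downward, and LD replicate 3 was the highest of its group in both. The 5 tested genes of the female-biased list all lay below 0 (median -0.41) with none passing, while both genes of the male-biased list, Cyp2d9 and Cyp2u1, rose. Of the 5, Cyp2b13 (-0.002 ± 0.65), Cyp2b9 (-0.16 ± 0.43) and Cyp2b10 (-0.41 ± 0.49) lay within 1 SE of 0, and Cyp2c40 was scarce. Of all members, 15 of 44 lay below 0, and 50.5% of all genes lay above 0. Both lists are short, so no sex-biased pattern is read from them. The remaining large changes were in scarce genes: Cyp2g1 was at 9.45, 21.7 and 37.3 in the libraries labelled LD, against 13.0, 9.01 and 7.29 in those labelled PBS, and Cyp3a57 at 2.10, 1.09 and 12.4 in the libraries labelled LD, against 13.0, 12.6 and 11.8 in those labelled PBS, and neither passed (limma adjusted p = 0.363 and 0.278). Cyp2c40, with values up to 15.2 in the libraries labelled LD and 16.4 in those labelled PBS, had a change of -0.56 ± 0.77 that turned to 0.11 without LD replicate 3.

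Beside the second comparison, markers of bile duct cells were lower: 4 of 7 passed, with a sum of 4075 to 7218 normalized counts in the libraries labelled LD and 9973 to 13818 in those labelled PBS. All 7 hepatocyte markers had a log2 fold change above 0 with a median of 0.20 and none passing, and their sum was 3989760 to 4348460 in the libraries labelled LD and 3191820 to 4065690 in those labelled PBS. Of 9 pericentral markers 1 rose and of 8 periportal markers 1 rose, with medians of 0.34 and 0.40, and no marker of these lists was at 0. Of the other lists, 2 of 8 stellate markers passed as lower and 1 of 8 macrophage markers as higher. No endothelial, neutrophil, T and NK, B and plasma, dendritic or mesothelial marker passed. Of all genes, 1.95% passed as higher and 2.21% as lower. The part of these cells in the P450 rises was not tested.

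Both tables were scaled separately, so each comparison's own values are set side by side. Some members were at very different levels in the 2 tables. Cyp2b9 had means of 14.2 (KO), 22.7 (WT), 2888 (LD) and 3630 (PBS) normalized counts. Cyp2c40 went the other way, with means of 843 (KO), 1535 (WT), 8.55 (LD) and 12.2 (PBS). The bearing of such levels on the label doubt was not tested. Of 40 members tested in both, 25 were above 0 in the libraries labelled LD over PBS and below 0 in those labelled KO over WT, 3 were above 0 in both, 9 below 0 in both, and 3 below 0 in the first and above 0 in the second. The same split over all genes was not computed. Of the 12 genes that rose in the libraries labelled LD, 11 were tested in the other table, and 10 of these were below 0 there. That is close to the share of all members there, where 39 of 45 were below 0, as were 52.8% of all genes. Cyp2d9 had 1.39 ± 0.15 for the libraries labelled LD over PBS and -0.55 ± 0.19 for those labelled KO over WT. Of the 11, Cyp2c37 is the 1 exception, at 0.10 ± 0.59 for KO over WT.

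Few regulators and partners of these enzymes passed. Of 22 receptors and factors that drive Cyp genes, 1 rose in the libraries labelled KO: Nr0b2 (SHP), a repressor of bile acid synthesis, was at 1707, 1724 and 1586 normalized counts there, against 1181, 770 and 862 in those labelled WT (0.86 ± 0.15, limma adjusted p = 0.0307). Of 9 genes of growth hormone and sex-dependent control, Onecut1 fell, with 86.0, 118 and 344 in the libraries labelled KO, against 877, 761 and 875 in those labelled WT (-2.45 ± 0.45, limma adjusted p = 0.0313). Both sets of values lay apart. Of 10 tested partner targets outside the families, Gadd45b, a CAR-responsive gene, rose by 1.72 ± 0.37 (limma adjusted p = 0.0487). None of 7 electron donors and membrane partners and none of 12 genes of haem synthesis and breakdown passed in either comparison. Por was at 11838, 11193 and 11118 in the libraries labelled KO, against 8474, 11557 and 10803 in those labelled WT (0.16 ± 0.13, limma adjusted p = 0.579). Nr1i2 had a change of 0.29 ± 0.13 (limma adjusted p = 0.294) and Ahr one of 0.21 ± 0.18 (limma adjusted p = 0.611) in the same comparison.

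Among the same receptors and factors, Foxa2, a liver transcription factor, rose in the libraries labelled LD. It was at 2356, 2209 and 1994 normalized counts in the libraries labelled LD, against 1320, 1331 and 1626 in those labelled PBS (0.62 ± 0.11, limma adjusted p = 0.0175). Each library labelled LD lay above each labelled PBS. Nr1i3 was at 2819, 3047 and 3284 in the libraries labelled LD, against 2738, 1940 and 2014 in those labelled PBS, and did not pass (0.47 ± 0.13, limma adjusted p = 0.0904). Nr1i2 (0.12 ± 0.09) and Ahr (-0.17 ± 0.14) had limma adjusted p of 0.543 and 0.536. Por was at 5648, 6818 and 12270 in the libraries labelled LD, against 6087, 6012 and 8870 in those labelled PBS (0.18 ± 0.26, limma adjusted p = 0.761), with replicate 3 the highest of each group. Of 10 partner targets, the carboxylesterase Ces2a, a PXR target, rose by 0.70 ± 0.12 (limma adjusted p = 0.0194), while the quinone reductase Nqo1 fell by 0.62 ± 0.13 (limma adjusted p = 0.0309) and the glutathione transferase Gsta1 by 1.85 ± 0.36 (limma adjusted p = 0.0263). None of 9 growth hormone genes passed.

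In nuclei, the deposited values were mean UMIs per 10000 in each of 12 numbered groups for the KO and the WT library, so there is no replicate error and no test, and neither the number of nuclei nor their depth is known. Group 0 held the highest level of all 9 pericentral hepatocyte markers and group 1 that of 7 of 8 periportal ones, and they are called pericentral and periportal hepatocyte-like. Members summed to 105 in the KO library and 101 in the WT library in group 0, and to 53.8 (KO) and 44.5 (WT) in group 1. In the other 10 groups the sum ran from 6.83 to 36.4 in the KO library and from 4.48 to 24.3 in the WT library, each highest in group 5, which carried all 5 neutrophil markers at their highest. Plasma protein genes that hepatocytes make, summed over 8 genes, were at 24.6 to 133 in those 10 groups in the KO library and 8.83 to 54.8 in the WT library, against 63.2 (KO) and 42.1 (WT) in group 0 and 128 (KO) and 58.5 (WT) in group 1. P450 levels outside groups 0 and 1 therefore come with plasma protein transcripts, and are not by themselves read as expression there. Genes highest in another group are described below, and the source of their RNA was not tested.

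**Figure D3:**
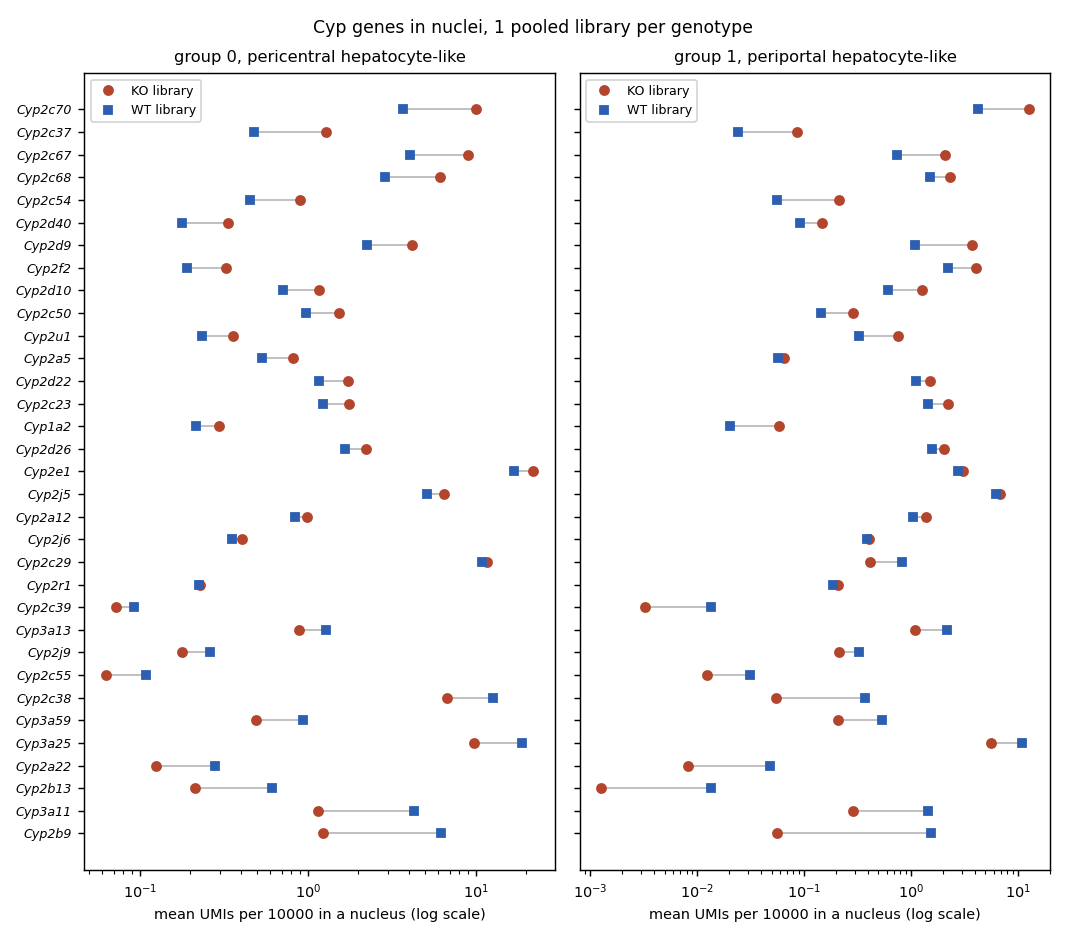
Mean UMIs per 10000 (x axis, log scale) of the 33 members above the median level of all genes in group 0, in nuclei of group 0 (left) and group 1 (right), ordered by the ratio in group 0. Red circles are the KO library and blue squares the WT library, 1 pooled library each with no error. In both groups Cyp2c70, Cyp2c37, Cyp2c67 and Cyp2d9 are higher in KO, and Cyp2b9, Cyp3a11 and Cyp3a25 lower.

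Differences between these groups describe the grouping and are no test, since all genes may have entered it. Cyp2f2 was at 0.325 in group 0 and 4.12 in group 1 in the KO library, and at 0.192 in group 0 and 2.23 in group 1 in the WT library. Cyp2e1 was at 22.1 in group 0 and 3.09 in group 1 in the KO library, and at 16.9 in group 0 and 2.75 in group 1 in the WT library. Levels in nuclei are not per length, so they are compared within a gene only.

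Some members were highest outside the hepatocyte-like groups. Cyp2s1, an enzyme of epithelia outside the liver, was at 3.94 in the KO library and 2.34 in the WT library in group 11, which held the highest level of all 6 mesothelial markers, and at 0 in groups 0 and 1 of both. Cyp1b1 was at 0.0234 in the KO library and 0.123 in the WT library in group 2, which led for all 8 stellate markers, and at most 0.00111 in groups 0 and 1. Cyp2r1, the vitamin D 25-hydroxylase, was at 0.224 in the KO library and 0.552 in the WT library in group 9 with the B and plasma cell markers, against 0.230 (KO) and 0.226 (WT) in group 0. Cyp2j6, an arachidonic acid epoxygenase, was at 0.467 in the KO library and 0.653 in the WT library in group 7 with the cholangiocyte markers, against 0.404 (KO) and 0.352 (WT) in group 0. Cyp3a11 was highest in group 5 by the mean of both libraries, at 4.12 in the KO library and 2.78 in the WT library, against 1.15 (KO) and 4.32 (WT) in group 0. In the WT library alone it was higher in group 0. Plasma protein genes in group 5 summed to 133 (KO) and 54.8 (WT), so this level of Cyp3a11 is not read as expression there. Cyp1a1, Cyp2a4, Cyp2c65, Cyp2c66, Cyp2d11, Cyp2g1, Cyp2j8, Cyp2j13 and Cyp2t4 were also highest outside groups 0 and 1, none of them above 0.0751 in either library.

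Between genotypes in group 0, 4 of 33 members were at least 2-fold higher in the KO library, where 3.74% of genes were, and 4 were at least 2-fold lower, where 1.73% were. In group 1, 8 of 29 were at least 2-fold higher, where 4.08% of genes were, and 5 at least 2-fold lower, where 3.78% were. The median log2 ratio was 0.39 over members and 0.02 over all genes in group 0, and 0.41 over members and -0.03 over all genes in group 1. Cyp2c70, which makes the muricholic acids of mouse bile, was at 10.0 in the KO library and 3.69 in the WT library in group 0, and at 12.8 (KO) and 4.29 (WT) in group 1. Cyp2c67 was at 8.96 in the KO library and 4.07 in the WT library in group 0, and Cyp2c68 at 6.16 (KO) and 2.89 (WT). Cyp2c37 was at 1.29 (KO) and 0.479 (WT) in the same group. These 4 were the members at least 2-fold higher in group 0. Cyp2d9 was at 4.17 in the KO library and 2.27 in the WT library in group 0, and at 3.72 (KO) and 1.1 (WT) in group 1.

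The members lower in the KO library were of several subfamilies. The 4 that were at least 2-fold lower in group 0 were Cyp2b9, Cyp3a11, Cyp2b13 and Cyp2a22. Of these, Cyp2b13 was at 0.213 (KO) and 0.615 (WT), and Cyp2a22 at 0.125 (KO) and 0.282 (WT). Cyp3a25 and Cyp2c38, given below, were lower in group 0 by less than 2-fold. Cyp2b9, female-biased in adult mouse liver, was at 1.24 in the KO library and 6.26 in the WT library in group 0, and at 0.0561 (KO) and 1.55 (WT) in group 1. Cyp3a11 was at 1.15 in the KO library and 4.32 in the WT library in group 0, and at 0.292 (KO) and 1.45 (WT) in group 1. Cyp3a25, a close relative of Cyp3a11, was at 9.82 in the KO library and 18.9 in the WT library in group 0, and at 5.64 (KO) and 11.1 (WT) in group 1. All 4 Cyp3a genes above the median, Cyp3a11, Cyp3a13, Cyp3a25 and Cyp3a59, were lower in the KO library in both groups. Cyp2c38, of the same subfamily as the genes that were higher, was at 6.75 in the KO library and 12.7 in the WT library in group 0, and at 0.0555 (KO) and 0.376 (WT) in group 1. Cyp2e1, Cyp2c29 and Cyp2j5 differed little in group 0, at 22.1, 11.7 and 6.47 in the KO library, against 16.9, 10.9 and 5.14 in the WT library. Plasma protein genes were higher in the KO library too, 1.5 times in group 0 and 2.19 times in group 1, which is a shift of 0.59 and 1.13 on the log2 scale. Relative to them, 13 rather than 22 of 33 members were above 0 in group 0 and 7 rather than 21 of 29 in group 1, with 0 at least 2-fold higher in either group and 10 and 9 at least 2-fold lower, and Cyp2e1 and Cyp2j5 turned to lower in both groups.

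Ahr was at 2.0 in the KO library and 2.65 in the WT library in group 0, and at 0.360 (KO) and 1.05 (WT) in group 1. Nr1i3 was at 5.30 in the KO library and 4.02 in the WT library in group 0, and at 0.967 (KO) and 1.23 (WT) in group 1. Nr1i2 was at 1.40 (KO) and 1.62 (WT) in group 0, and Por at 3.32 (KO) and 3.0 (WT). Among these 4 the KO library was lower in both groups for Ahr alone.

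**Figure D4:**
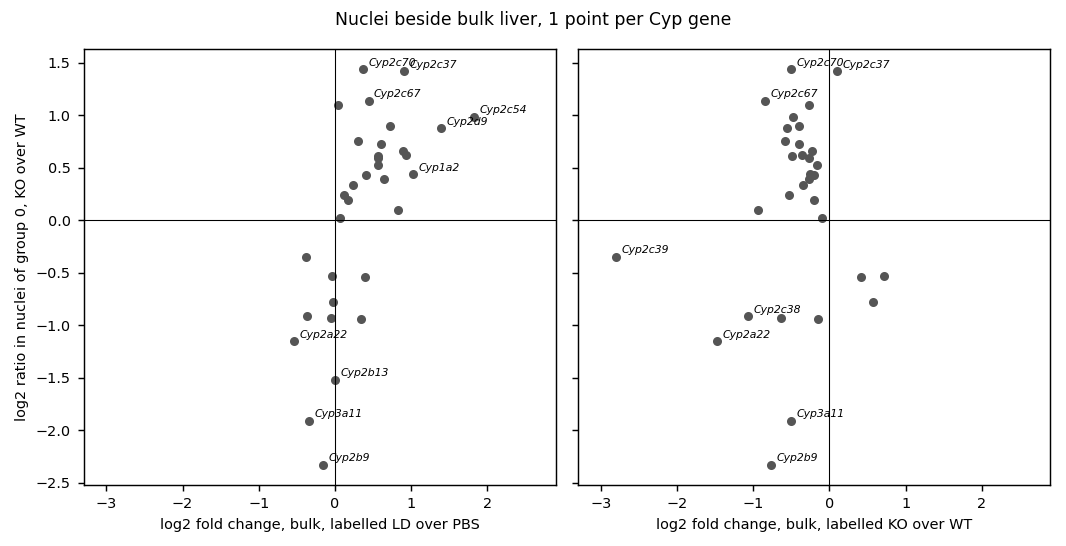
Log2 ratio of KO to WT in nuclei of group 0 (y axis) against the log2 fold change in bulk liver (x axis) for the libraries labelled LD over PBS (left, 33 genes) and KO over WT (right, 32 genes), with 1 point per gene and lines at 0. On the left 31 of 33 points have the same sign on both axes, and on the right 8 of 32 do, counts that become 22 and 17 where the ratio is divided by plasma protein genes.

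Set beside bulk liver, the nuclei ratios in group 0 had the sign of the libraries labelled LD over PBS for 31 of 33 members (22 higher in both, 9 lower in both), with Pearson's r of 0.66 and Spearman's rho of 0.70. They had the sign of the libraries labelled KO over WT, the comparison with the same labels, for 8 of 32 members, with r of 0.14 and rho of 0.05. In group 1 the counts were 26 of 29 (r 0.70, rho 0.74) and 7 of 29 (r 0.19, rho 0.04). These counts depend on where the nuclei ratio is 0: divided by plasma protein genes, an alternative chosen after seeing the data, they were 22 of 33 and 17 of 32 in group 0 and 12 of 29 and 21 of 29 in group 1. The same counts over all genes were not computed, so they are not read as particular to P450 genes. These are descriptions across genes, which share libraries and exon sequence and are not independent, and the part of the label doubt in them was not tested. Onecut1, which fell in the libraries labelled KO, was at 6.01 in the KO library and 2.76 in the WT library in nuclei of group 0. Cyp2d9 had a log2 value of 0.88 in nuclei of group 0, 1.39 in the libraries labelled LD over PBS and -0.55 in those labelled KO over WT, and Cyp2c70 had 1.44 in nuclei, 0.36 for LD over PBS and -0.51 for KO over WT. Cyp3a11 was below 0 in all 3, at -1.91 in nuclei, -0.34 for LD over PBS and -0.50 for KO over WT.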

How the data were processed

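Members were selected by symbol, and the members and all gene lists were chosen with earlier results of these data known. Reads were checked with FastQC and aligned with STAR to mm10, and the bulk tables come from DESeq2, per the submitters' processing notes, while Cell Ranger and Seurat 4.0.1 are named for the nuclei. The read counter, its strand setting, the annotation and other versions are not given in the sources used here. The bulk signal values are read counts that the authors divided by a size factor per library, and 100% of them came out as whole multiples of the value of 1 read (tolerance 0.01 of a read). The nuclei signal values are mean UMIs per 10000, given for each numbered group in each library, as deposited by the authors, with 4 duplicated entries left out here. The log2 fold changes and p-values of the authors' deposited table are quoted only as such.

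Bulk values were tested with limma 3.58.1 in R 4.3.3 (lmFit and eBayes with trend) on log2(value + 1), over all genes with at least 10 normalized counts in at least 3 of 6 libraries, with Benjamini-Hochberg adjustment over all genes and a threshold of 0.05. Fold changes are on the log2(value + 1) scale, where the added 1 shrinks the change of low genes. Where replicates spread widely, the limma change could be larger or smaller than in edgeR and DESeq2. For KO over WT, Cyp2b10 was at -1.93 in limma, -1.32 in edgeR and -1.33 in DESeq2, and Cyp2c39 at -2.80, -2.27 and -2.28. For LD over PBS, Cyp2g1 was at 0.99, 1.21 and 1.23. The alternatives were edgeR 4.0.16 (quasi-likelihood) and DESeq2 1.42.0 on the recovered reads, quantile normalization, pseudocounts of 0.5 and 5, no filter, a mean of at least 50, a replicate block and leaving out each library. The model was tested on simulated data. Nuclei have 1 pooled library per genotype, so ratios are given with a pseudocount of 0.00247702 (the 5th percentile of values above 0) and no test, for members above the median level of all genes in the group. Positions and exon lengths are GENCODE's for mm10 (55 members), while the position of Cyp2d13 and all upstream sequence are RefSeq's for GRCm38.p6. Columns mapped to no sample numbered 0.

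Members named with values were all that passed, the 8 highest per kilobase, the 4 largest rises and falls in each bulk table, the highest in nuclei and those highest outside hepatocyte-like groups, together with listed regulators that passed and Nr1i2, Nr1i3, Ahr and Por. A regulator of that list is not reported here. The rule took hepatocyte-like groups as the 2 highest in Alb, but these were groups 1 and 5, so groups 0 and 1 were used instead by their zonation markers, a change made after values were seen. Other members named with values were chosen after their values were seen, among them those that DESeq2 called or whose upstream sequence is printed.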

Additional observations from a re-analysis of the deposited data

Results flagged for a closer look

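Cyp2c29, a CAR-induced epoxygenase, was about level between the KO and WT libraries in 1 hepatocyte-like group of nuclei and lower in KO in the other, with ratios of opposite sign. Its log2 ratio was 0.0937 in group 0, where it was at 11.7 in the KO library and 10.9 in the WT library, and -0.99 in group 1, where it was at 0.415 and 0.827. With 1 pooled library per genotype the difference between the groups was not tested, and division by plasma protein genes put both ratios below 0.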

How the results depend on the processing

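For the libraries labelled KO over WT, the count of members called stayed at 0 in limma under every scaling, pseudocount and filter tried and in edgeR (0 to 0 without 1 library). It was 8 in DESeq2. For the libraries labelled LD over PBS the count of 12 ran from 3 to 17 without 1 library, and was 10 in edgeR, 17 in DESeq2, 9 after quantile normalization and 9 with a mean of at least 50. Replicate numbers were shared between groups, but the numbers did not pair the samples: correlations of their deviations were 0.119, -0.030 and -0.018 in the table labelled KO and WT and 0.048, -0.043 and 0.132 in the other. With a replicate block, limma called 2 members in the libraries labelled KO, Cyp2c38 and Cyp2c40, both lower, and 13 in those labelled LD: Cyp2c67 lost its call (adjusted p = 0.05005), and Cyp2a5 (higher, 0.0300) and Cyp2a4 (lower, 0.0137) gained one. Without 1 library the log2 fold change of Cyp2c55 ran from -0.023 to 1.22 in the libraries labelled KO, and that of Cyp2c40 from -1.16 to 0.11 in those labelled LD. The cause was not tested.

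Divided by plasma protein genes, the nuclei log2 ratios of Cyp2e1 (-0.20 in group 0, -0.96 in group 1), Cyp2j5 (-0.25 and -0.99), Cyp2c29 (-0.49 in group 0) and Cyp2c68 (-0.52 in group 1) turned negative, by the construction of that scaling. With 3 libraries per group, only large or even changes can pass, near-identical copies limit single members, and the depth behind the nuclei values is unknown.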
